A study of Neurospora crassa with 12 samples.

Results

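Isolated genes without any assembled transcript are annotated Neurospora crassa genes for which the reads of all libraries together gave no transcript, and which stand alone or beside a single other such gene. Of the 9730 annotated genes in the merged annotation, 824 had no assembled transcript (8.47%), and 500 of these were isolated (5.14% of all genes). The 500 genes were chosen by the assembly itself, so these shares are a description and were not tested. The annotated genes were put in order along each chromosome by their lowest base. A gene counted as assembled where at least 1 of its transcripts was written by StringTie, and as unassembled where every transcript had been carried over from the reference annotation. Runs of 1 unassembled gene gave 344 members and 78 runs of exactly 2 gave 156. The other 324 unassembled genes lay in runs of 3 or more, from 22 runs of 3 genes to 1 run of 23, and are called clustered. The remaining 8906 genes were assembled. No transcript of StringTie overlapped any of the 500 genes on either strand. The same held for all 824 unassembled genes, so every gene that such a transcript overlapped counted as assembled. Label and overlap thus coincide in this file, and the one is no separate check of the other. A row written by StringTie does not by itself show that reads covered the whole of an assembled gene.

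RNA-seq was done on total RNA from mycelia of 3 strains. These were WT, Δset-1 (set1 in the labels, also Δkmt2), which lacks the H3K4 methyltransferase, and Δdim-5 (dim5 in the labels, also Δkmt1), which lacks the H3K9 methyltransferase. Both deletion strains came from the knockout collection and had been backcrossed to the WT strain. Each strain was harvested after 24 h in constant darkness (DD24) or after the same dark time with 30 min of light before harvest (LP30), with 2 replicates for each of the 6 groups and 12 libraries in all. The labels name mycelia only, and the file holds no levels with which to check them. It holds 1 annotation, in which the transcripts of all 12 libraries are merged. It gives positions, strands and exons but no read number, so the depth of each library is unknown and no effect of strain or light on these genes could be measured. A gene is a member only if none of the 12 libraries gave a transcript that reached the merged annotation. That does not show that the gene was silent, since the assembler drops transcripts with few reads.

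Neurospora crassa grows as branching hyphae that form mycelium and asexual spores. When nitrogen runs short and the opposite mating type is met, it forms perithecia, fruiting bodies in which nuclei fuse and meiosis takes place. Many genes of mating, perithecium formation and meiosis are known to act mainly in that part of the life cycle. An annotated gene model can come from RNA evidence, which gives untranslated regions (UTRs), or from gene prediction alone, which gives the coding sequence only.

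The isolated genes were short. Their median span, from first to last base, was 1208 bp (quartiles 770.25 and 1955.25, range 240 to 9745). The median was 2234 bp for assembled genes and 1001.5 bp for clustered genes. Single members had a median of 1231.5 bp and members in pairs 1180.5 bp. Just outside the rule, the 66 genes in runs of exactly 3 had a median of 1135.5 bp (297 to 3454), close to that of the pairs just inside it. Exonic length gave the same order, with medians of 960 nt in isolated, 822 nt in clustered and 2035.5 nt in assembled genes. Genes are not replicates and the members were selected on the assembly, so these medians stand without a test. Over the whole genome the isolated genes filled 720.106 kb.

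Among genes under 500 bp, 37 of 189 were isolated members, 19.6% (14.2 to 26.0). The values in brackets beside shares are exact Clopper-Pearson 95% intervals, which cover counting error only. From 500 to below 1000 bp it was 164 of 917 genes (17.9%, 15.5 to 20.5), and from 1000 to below 2000 bp 180 of 3297 (5.46%). The share was lower again for long genes, with 90 of 2823 from 2000 to below 3000 bp (3.19%) and 29 of 2504 at 3000 bp or more (1.16%, 0.777 to 1.66). Against the 5.14% over all genes, the share was more than 3 times as high below 1000 bp and lower from 2000 bp on. Clustered genes took 18.5% of the shortest class and 0.280% of the longest. Long genes among the unassembled ones were therefore mostly isolated, with 29 isolated and 7 clustered genes at 3000 bp or more.

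**Figure D1:**
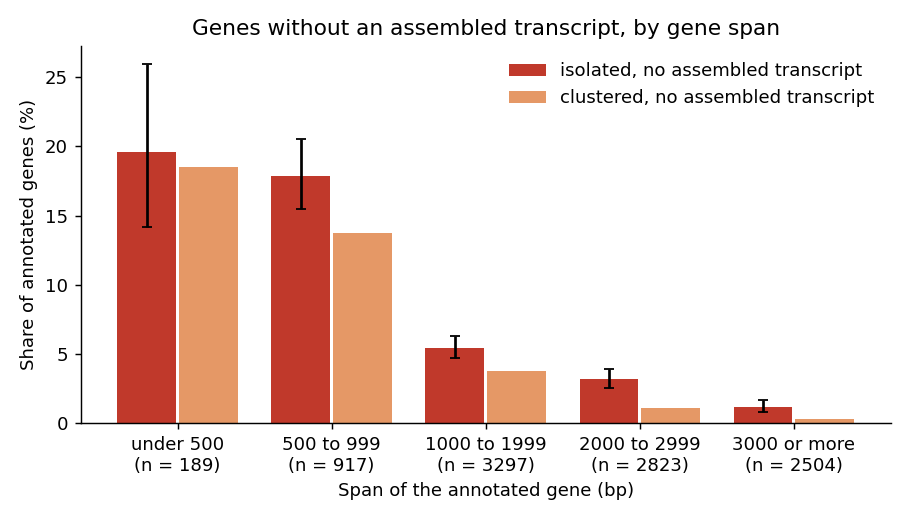
Share of annotated genes (%, vertical axis) that were isolated (red) or clustered (orange) genes without an assembled transcript, in 5 classes of gene span (bp, horizontal axis), with the number of annotated genes in each class. Bars start at 0 and the lines on the red bars are exact 95% intervals; the red share is 19.6% below 500 bp and 1.16% at 3000 bp or more.

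Exon numbers of isolated and assembled genes lay closer together than their spans. A single exon was found in 112 of the 500 isolated genes, 22.4% (18.8 to 26.3), beside 32.1% of clustered and 17.7% of assembled genes. Genes with 2 exons were the most frequent, at 35.6%, and 9.80% had 5 or more, beside 11.4% of assembled genes. Within each exon number the isolated genes were shorter than the assembled ones. Single-exon members had a median span of 997.5 bp beside 1848 bp in assembled genes. With 2 exons it was 1049.5 beside 2017 bp, with 3 exons 1154 beside 2269 bp, and with 7 or more exons 2616 beside 3424 bp, there from 14 members only. The share of genes that were members was 6.26% with a single exon (5.18 to 7.48), 5.36% with 2, 4.94% with 3, 3.82% with 4 (2.82 to 5.05) and 4.96% with 5 exons. It was 2.53% with 6 exons (1.02 to 5.14, 7 of 277 genes) and 5.79% with 7 or more (3.20 to 9.52). It was thus lower with 4 exons than with 1, and did not go down steadily with exon number.

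Introns of the isolated genes were longer. The 790 introns of members had a median length of 98.5 nt (quartiles 68.25 and 181, range 36 to 917), whereas the median was 87 nt in clustered genes and 74 nt in assembled genes (quartiles 62 and 108). Introns over 200 nt made up 170 of the 790, 21.5% (18.7 to 24.6), beside 21.2% in clustered and 10.2% in assembled genes. Introns of members are those of the reference model, and no intron of theirs was seen in an assembled transcript.

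The exonic lengths of the isolated genes also had a property that was noticed after the values were seen. In 426 of 500 members, 85.2% (81.8 to 88.2), the exonic length was a multiple of 3, which is a whole number of codons. A length unrelated to codons is a multiple of 3 in 1 of 3 genes. The share was 88.6% in clustered genes and 40.4% (39.4 to 41.4) in assembled genes. A model that holds coding sequence alone has a whole number of codons. The file marks no coding sequence or UTRs, so which models lack UTRs was not measured, and it is not known how far the spans and gaps given here compare models of the same kind. The difference was present in each span class from 500 bp up. It was 89.0% of members beside 65.4% of assembled genes from 500 to below 1000 bp, 80.6% beside 43.0% from there to below 2000 bp, and 82.8% beside 33.6% at 3000 bp or more. Below 500 bp both were high, at 97.3% and 93.2%.

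**Figure D2:**
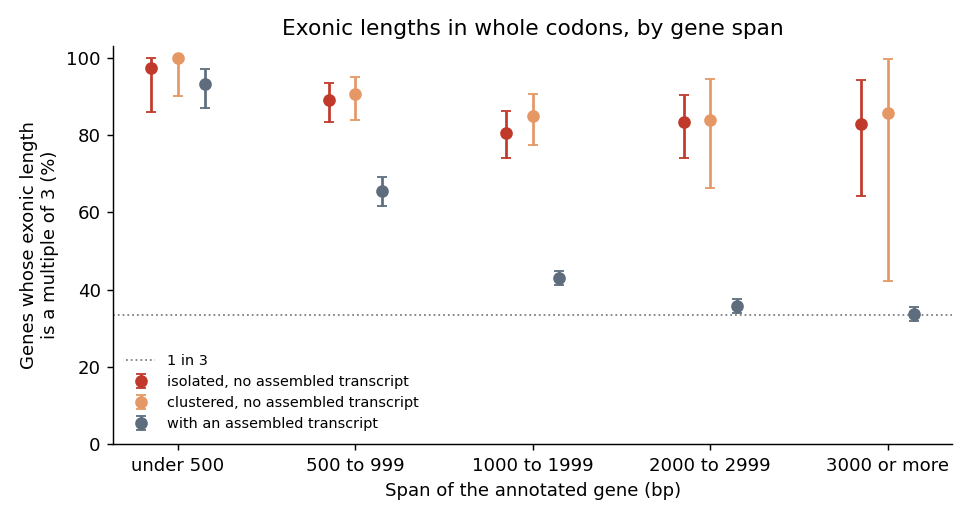
Share of genes whose exonic length is a multiple of 3 (%, vertical axis) by gene span (bp, horizontal axis) for isolated (red), clustered (orange) and assembled (grey) genes. Points are shares, lines are exact 95% intervals and the dotted line marks 1 in 3; isolated genes stay between 80.6% and 97.3% while assembled genes go from 93.2% to 33.6%.

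Among genes with an exonic length in whole codons, the median exonic length was 900 nt in isolated and 1807.5 nt in assembled genes. Among the others it was 1180.5 nt in 74 members and 2186 nt in assembled genes. The 40.4% of assembled genes with such a length lies near the 1 in 3 of lengths unrelated to codons, so this split does not separate models with UTRs from models without. Seen from the annotation, 426 of 4313 genes with a whole number of codons were members, 9.88% (9.0 to 10.8), and 74 of 5417 genes with another length, 1.37% (1.07 to 1.71). How far the kind of evidence behind a gene model accounts for its place among the members was not tested.

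Members were also thinly annotated in other respects. All 500 were listed as protein coding in the RefSeq gene table of the same assembly, with the same first and last base. A gene symbol was given for 14 of them, 2.80% (1.54 to 4.65), beside 12.3% of assembled and 1.85% of clustered genes. Only NCU01034 and NCU07077 had 2 annotated transcripts, 0.400% of members, whereas 10.05% of assembled genes had 2 or more. Identifiers from NCU16000 up were carried by 40 members, 8.0% (5.78 to 10.7), beside 4.75% of assembled genes. Conversely, 40 of the 491 genes with such an identifier were members (8.15%), as were 33 of 464 numbered from 10000 to below 16000 (7.11%) and 427 of 8775 with a lower number (4.87%).

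The members with a symbol could be matched to lists, and the list of meiosis and meiotic silencing held many of them for its size. The lists were chosen with earlier results of these data known, and were matched by symbol alone. Of its 5 genes found by symbol, 4 were isolated and sad-3 was assembled, a share of 80.0% (28.4 to 99.5) beside 5.14% of all genes. Other genes named in the list matched no symbol and were not examined, so the share covers only part of the list. Meiotic silencing by unpaired DNA is a process in which a gene without a partner on the homologous chromosome during meiosis is silenced through small RNAs, together with its other copies. With 5 genes the interval is wide, and no test was made of a list so chosen.

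The gene sad-1 (NCU02178) encodes the RNA-dependent RNA polymerase of meiotic silencing. It lies on the plus strand of chromosome I at 969499 to 974473 (NC12) and has 2 exons of 3142 and 1775 nt, 4917 nt in all, which made it the third longest member. It formed a convergent pair with NCU16321 (974675 to 976129, minus strand), 201 bp from its 3′ end. The nearest assembled transcript, MSTRG.293.4, ended 1029 bp upstream of sad-1 on the same strand. The locus upstream carried several assembled isoforms, and none of them reached sad-1.

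The gene sad-2 (NCU04294), whose product is needed to place SAD-1 around the nucleus, lies on the plus strand of chromosome V at 5529766 to 5533137 and has 3294 nt in 2 exons. Its nearest assembled transcript lay 728 bp past its 3′ end on the opposite strand. The gene sms-2 (NCU09434) encodes the Argonaute protein of meiotic silencing. It lies on the minus strand of chromosome VII at 166762 to 170125 and is a single exon of 3364 nt, with the nearest assembled transcript 933 bp from its 3′ end. Each of these 3 silencing genes was longer than 3000 bp, and so was sad-3 (3844 bp), which was assembled.

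The gene spo11 (NCU01120) encodes the protein that makes the DNA breaks with which meiotic recombination starts. It lies on the plus strand of chromosome V at 2963578 to 2965419. Its 1453 nt of exon fall into 8 exons of 67 to 373 nt, and only 3 members had more exons. The annotated start of NCU01119, an assembled gene on the opposite strand, lay 601 bp upstream of it.

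In the list of mating type and pheromone genes, 2 of 7 were isolated, 28.6% (3.67 to 71.0), an interval that holds the 5.14% of all genes. They were matA-3 (NCU01960, chromosome I, 1857194 to 1858469, minus strand, 4 exons) and matA-2 (NCU01959, 1859093 to 1860424, plus strand, 5 exons), a divergent pair with 623 bp between the genes. The third gene of this mating-type locus, matA-1, lay 267 bp downstream of matA-2 and was assembled, as were ccg-4, mfa-1, pre-1 and pre-2, which encode pheromone precursors and receptors. The pair sat in a stretch of 4806 bp without any assembled transcript.

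Among 10 genes of sexual development only per-1 was isolated, 10% (0.253 to 44.5) beside 5.14% of all genes, which this interval holds. The other 9 were assembled. The gene per-1 (NCU03584) encodes a polyketide synthase needed for the dark pigment of the perithecium wall. It lies on the minus strand of chromosome V at 1714456 to 1721951 and was the second longest member, with 7271 nt in 3 exons. Its partner in a pair was NCU03585 (1723582 to 1723869), which with 207 nt of exon was among the shortest. The nearest assembled transcript to per-1, intergenic and on the same strand, lay 4673 bp away, and the stretch without any assembled transcript around the pair was 17488 bp long.

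**Figure D3:**
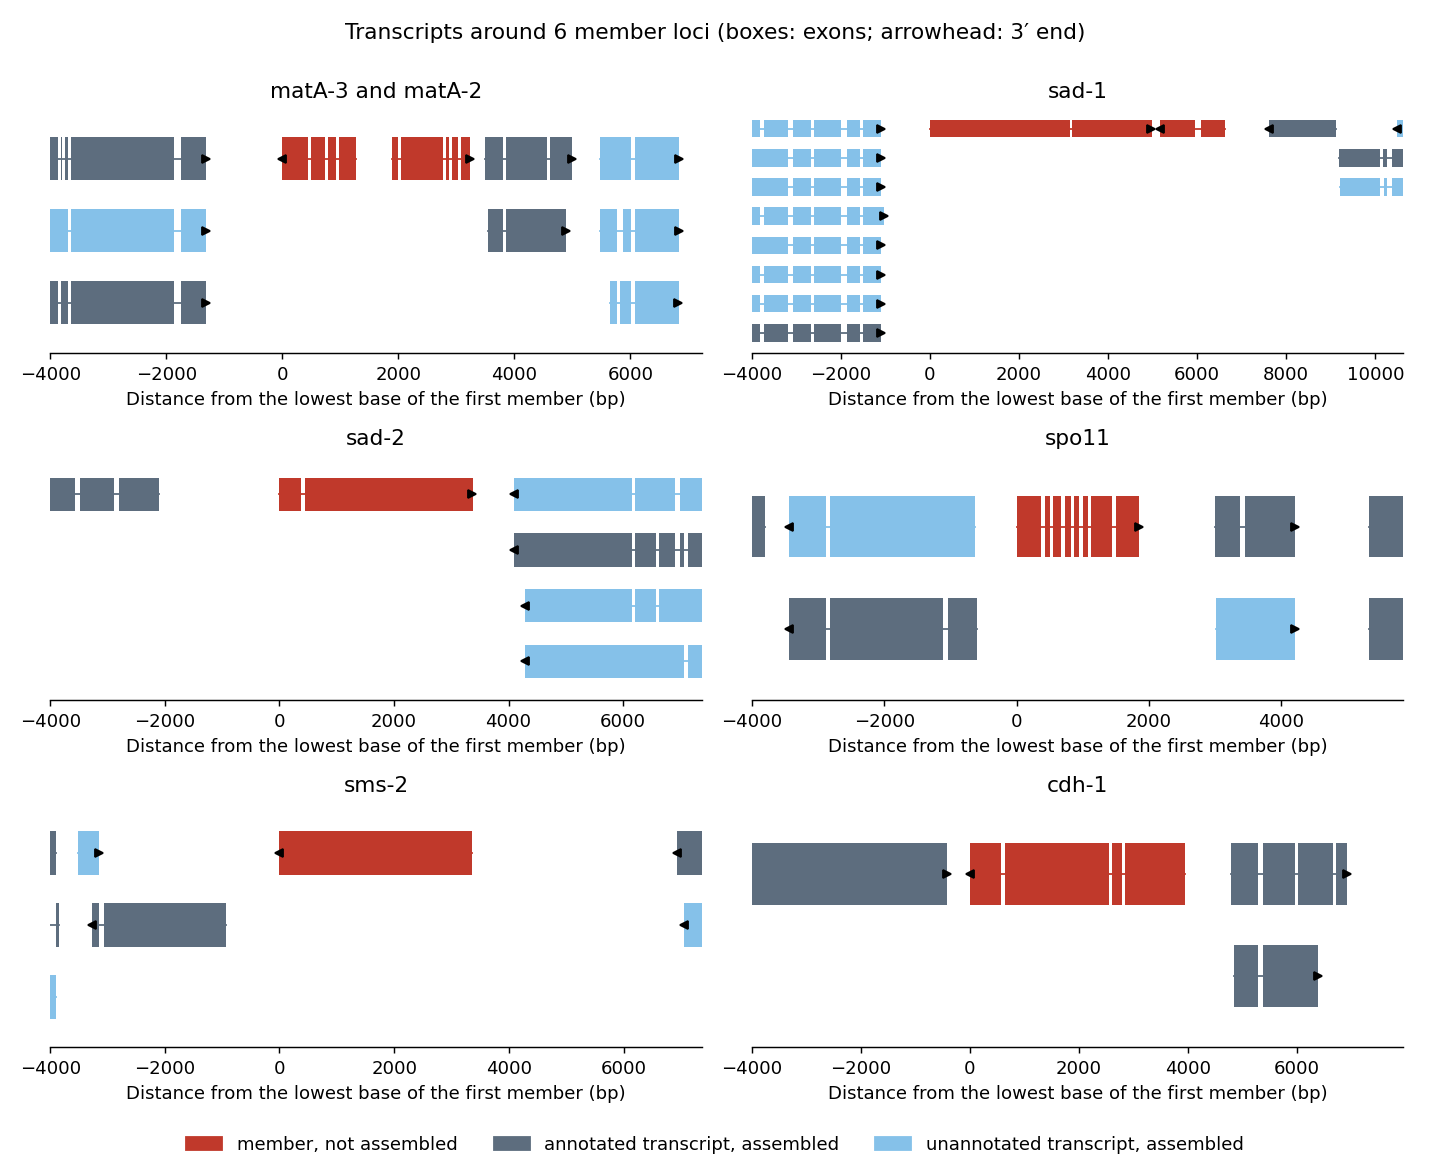
Annotated and assembled transcripts around 6 loci with members, against the distance from the lowest base of the first member (bp, horizontal axis). Boxes are exons, arrowheads mark 3′ ends, members are red, assembled annotated transcripts grey and assembled unannotated transcripts blue; no grey or blue transcript touches a red gene, and the nearest to matA-2 lies 267 bp away, that to sad-1 1029 bp.

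Other lists, as far as their genes were found by symbol, were assembled in whole or nearly so. Genes without a matching symbol were not examined. Of those found, all 5 of the quinic acid cluster, all 10 of conidiation and all 5 nit genes of nitrogen use were assembled. So were all 4 of heterokaryon incompatibility and all 9 histone genes. With a count of 0, the upper end of the interval was 52.2% for 5 genes and 30.8% for 10 genes, so lists of this size could hold members at the rate of all genes and show none. The list of plant cell wall breakdown held 82 genes, of which 4 were isolated, 4.88% (1.34 to 12.02), close to the 5.14% of all genes. These 4 were gh61-7 (NCU00836) of the lytic polysaccharide monooxygenases, gh3-8 (NCU00709) of a family with many β-glucosidases, gh7-3 (NCU04027) of a cellulase family, and gh18-1 (NCU04500). Family 18 glycoside hydrolases are known as chitinases, which act on the fungal wall and not on that of plants, so gh18-1 entered the list by its symbol. The list took every symbol of gh followed by a digit, so other family 18 genes were in it too. Its share is thus that of genes with such symbols, and not of plant wall genes alone.

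These 4 genes differed in how close the next transcript came. The 3′ end of the assembled gene NCU00710 lay 51 bp from the 3′ end of gh3-8 (chromosome I, 7477764 to 7480507, minus strand). An unannotated transcript on the opposite strand ended 84 bp past the 3′ end of gh7-3 (chromosome VI, 2496061 to 2497294, plus strand), and gh7-3 formed a divergent pair with NCU04026 at a gap of 1243 bp. The distance was 408 bp for gh61-7 (chromosome I, 7005196 to 7006890, plus strand) and 943 bp for gh18-1 (chromosome IV, 3162545 to 3164692, minus strand). In each of the 4 the nearest transcript lay at the 3′ side on the opposite strand.

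The last symbols fall in families that were added after the values were seen. Of the cellobiose dehydrogenase genes, whose products oxidise cellobiose outside the cell, cdh-1 was a member and cdh-2 was assembled. The gene cdh-1 (NCU00206) lies on the minus strand of chromosome III at 3004156 to 3008108 with 3759 nt in 4 exons, 422 bp from the 3′ end of the assembled gene NCU00205. Of 53 genes named stk, for serine-threonine protein kinases, 48 were assembled, 4 were clustered and stk-41 (NCU06421, chromosome III, 1348760 to 1349924, plus strand, 921 nt in 3 exons) was isolated. The gene stk-41 was followed on the same strand by stk-42, which was assembled and began 723 bp downstream. The isolated share of stk genes was 1.89% (0.0478 to 10.1), an interval that holds the 5.14% of all genes. The cytochrome P450 gene cyp450-31 (NCU02852, chromosome I, 8916192 to 8917910, plus strand, 1650 nt in 2 exons) was the only gene so named in the file. With 2 cdh genes and 1 cyp450 gene, these counts give no rate to set beside that of all genes.

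Most members have no symbol and are known by number only. The longest was NCU05047 on the minus strand of chromosome VI (3925925 to 3935669), with 9249 nt in 7 exons, convergent with its partner NCU05048 at a gap of 1756 bp. After per-1 and sad-1 came NCU03481 (4848 bp) and NCU03562 (4556 bp), both on the plus strand of chromosome II. The shortest was NCU05962 on chromosome VI (3303139 to 3303378, minus strand), a single exon of 240 nt, followed by NCU04214 (273 bp), NCU03585 and NCU06298 (both 288 bp) and NCU07219 (300 bp). The highest exon number, 12, was that of NCU01853 on chromosome I (2256727 to 2259390, plus strand, 1959 nt of exon). NCU03351 and NCU07480 had 9 exons, and NCU01717 and NCU04860 had 8, as spo11 did. The members thus ranged from a single short exon to genes of full length and many exons.

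Assembled transcripts came close to most members. The nearest assembled transcript on either strand lay at a median distance of 766.5 bp (quartiles 404.25 and 1283 bp). It lay within 500 bp for 153 members (30.6%), within 1000 bp for 314 (62.8%) and within 2000 bp for 443 (88.6%). The median was 683.5 bp for members that stood alone and 1053.5 bp for those in pairs, beside 1928.5 bp in runs of exactly 3 and 3578.5 bp for clustered genes. The rule bears on this distance, since a gene deep in a long run is far from any assembled gene, and the order is a description only.

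**Figure D4:**
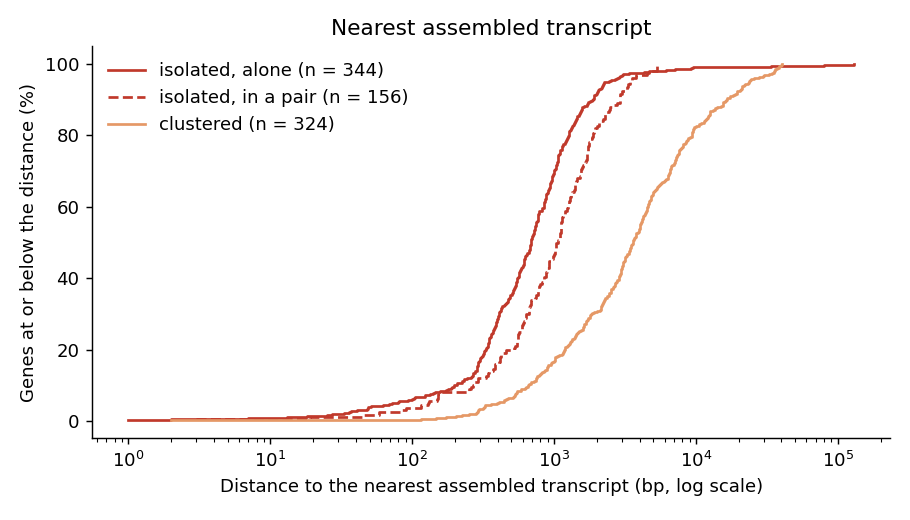
Share of genes (%, vertical axis) whose nearest assembled transcript lies at or below a distance (bp, logarithmic horizontal axis), for isolated members alone (red, solid), isolated members in pairs (red, dashed) and clustered genes (orange). The curves pass 50% at 683.5, 1053.5 and 3578.5 bp.

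At the near end, 28 members had an assembled transcript within 100 bp (5.60%). NCU06197 on chromosome III (1862257 to 1863149, plus strand) lay 1 bp from the start of the assembled gene NCU06196 on the opposite strand. NCU04984 on chromosome IV was 2 bp from the start of the assembled gene NCU16750, and NCU05557 on chromosome VI (1523630 to 1526819, minus strand) was 3 bp from the end of the intergenic transcript MSTRG.11076.1 on its own strand. NCU05877 followed at 7 bp and NCU05938 at 13 bp. These genes were left without a transcript although an assembled one ended or began almost at their first or last base.

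At the far end, 10 members lay over 5000 bp from any assembled transcript and 3 over 10000 bp. NCU05742 on chromosome III (813119 to 813977, minus strand) was 130263 bp from one. It has 4 exons of 7 to 243 nt, 309 nt in all. NCU08585 on chromosome I (3819644 to 3819946, minus strand), a single exon of 303 nt, was 79346 bp away. NCU04974 on chromosome IV (994038 to 994787, plus strand) followed at 33809 bp, then NCU10702 at 9479 bp and NCU07250 at 9190 bp. Each of these 5 was under 1300 bp long.

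The stretches free of assembled transcripts around the members were mostly short. For the 422 stretches with a transcript at both ends the median length was 4258 bp (quartiles 2940.75 and 5982, range 987 to 282595). It was 3787 bp for 350 stretches with a single member and 6836 bp for 72 with both members of a pair. In 4 pairs an assembled transcript lay between the genes, and each gene had its own stretch. The genes filled a median of 35.3% of the stretch. Only 37 stretches were over 10 kb, and the longest were around NCU05742 (chromosome III, 682856 to 965450), NCU08585 (chromosome I, 3740298 to 3972682, 232385 bp), NCU04974 (chromosome IV, 874451 to 1028596, 154146 bp) and NCU09667 (chromosome V, 890999 to 1016631, 125633 bp). Around the pair NCU09726 and NCU09725 on chromosome VII it was 34760 bp.

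The nearest transcript was of an annotated gene for 60.4% of members. For 116 members (23.2%) it was an unannotated transcript of a gene region and for 82 (16.4%) an intergenic transcript. Its 3′ end faced the member in 361 of 500 cases (72.2%) and its start in 27.8%. A 3′ end also faced 71.2% of genes in runs of exactly 3 and 65.1% of clustered genes, and no such share was taken for assembled genes. The nearest transcript lay at the 3′ side of the member on the opposite strand in 37.0%. It lay at the 5′ side on the same strand in 35.2%, and both turn a 3′ end towards the member. A start that faced the member, at the 3′ side on the same strand (16.2%) or at the 5′ side on the opposite strand (11.6%), was less frequent. An unannotated transcript of any kind lay within 1000 bp of 180 members, 36.0% (31.8 to 40.4), beside 8.95% of clustered genes. It was 42.2% for members alone, 22.4% for those in pairs and 15.2% in runs of exactly 3. The rule bears on this share as on the distance, and it was not taken for assembled genes. An intergenic transcript lay within 1000 bp of 60 members, 12% (9.28 to 15.2), beside 3.09% of clustered and 22.9% of assembled genes.

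Annotated neighbours were also farther away than for assembled genes. The median gap to the nearer annotated neighbour was 805 bp in isolated and 802 bp in clustered genes and 242 bp in assembled genes. These medians are not over like genes, because 25.15% of assembled genes overlapped another gene (2240 of 8906), whereas no unassembled gene was overlapped by an assembled transcript. Among genes clear of any other the median was 821.5 bp in 498 members and 389 bp in 6666 assembled genes. The gap at the 5′ side had a median of 1402 bp in members and 865 bp in assembled genes, and the gap at the 3′ side 1156 and 671.5 bp. Whether models without UTRs account for the wider gaps was not tested.

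The orientation of neighbours differed as well. Of 840 neighbouring pairs of a member and an assembled gene that did not overlap, 461 were on the same strand (54.9%), 235 were convergent (28.0%) and 144 were divergent, 17.1% (14.7 to 19.9). Among 7284 pairs of assembled genes without overlap, 49.1% were on the same strand, 18.8% were convergent and 32.1% were divergent. The interval for divergent pairs with a member thus lay below the share among assembled genes, and no test was made. For pairs with a member the share changed with the gap. With up to 500 bp between the genes, 10 of 135 pairs with a member were divergent, 7.41% (3.61 to 13.2), beside 31.4% of pairs of assembled genes. From there to 1000 bp it was 14.1% beside 30.9%, from there to 2000 bp 19.4% beside 33.8%, and above 2000 bp 22.0% beside 33.0%. The convergent share went from 48.1% of pairs with a member at up to 500 bp to 18.3% above 2000 bp. Among pairs of assembled genes the convergent share was also higher at short gaps, from 23.0% to 15.7%. What the rule contributes to these shares was not tested.

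**Figure D5:**
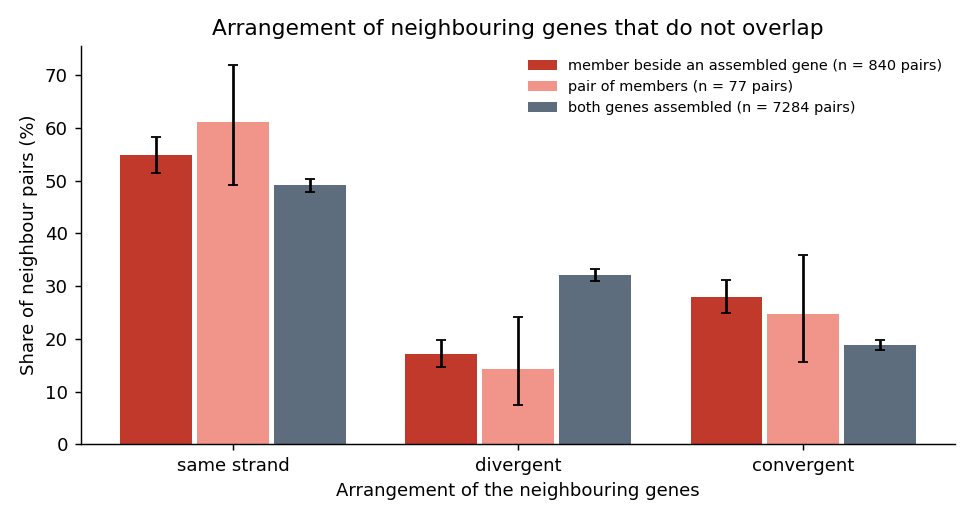
Share of neighbouring gene pairs without overlap (%, vertical axis) on the same strand, divergent or convergent, for a member beside an assembled gene (red, 840 pairs), 2 members (light red, 77 pairs) and 2 assembled genes (grey, 7284 pairs). Bars start at 0 and lines are exact 95% intervals; divergent pairs make up 17.1% with a member and 32.1% with both genes assembled.

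The 78 pairs of members were mostly arranged head to tail. Both genes were on the same strand in 48 pairs, 61.5% (49.8 to 72.3), beside 44.9% of all neighbouring genes. Among pairs without overlap the share was 61.0% (49.2 to 72.0) for members and 61.5% within clusters. It was 50.2% over all neighbours without overlap, a share that the interval for members holds. Of these 48 pairs, 35 were on the minus strand and 13 on the plus strand. The plus strand held 35.9% of members in pairs, 54.7% of members alone and 66.7% of genes in runs of exactly 3. Over all genes it held 50.4%. The lean to the minus strand was thus not shared by members alone or by runs of 3, and was not tested. A further 19 pairs were convergent and 11 divergent. The gap within a pair had a median of 1156.5 bp (quartiles 583.25 and 1756, highest 26438). Consecutive NCU numbers were carried by 66 of the 78 pairs. No such share was taken over all neighbouring genes, so this count does not set the pairs apart.

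A few pairs lay very close. In NCU03541 and NCU03540 (chromosome II, 311302 to 314057, minus strand) the spans overlapped, the only overlap between members. NCU04992 and NCU04991 on chromosome VI (4158666 to 4162424) were convergent with 78 bp between them. NCU09323 and NCU16382 on chromosome I shared the minus strand at a gap of 98 bp, and NCU17282 and NCU17283 on chromosome VII the plus strand at 123 bp. NCU16439 and NCU16440 on chromosome I (7250164 to 7251638) were divergent, with starts 130 bp apart.

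Members were spread over all 7 chromosomes. They made up 4.22% of the genes on chromosome I (99 of 2347) and 6.42% on chromosome II (66 of 1028, 5.0 to 8.10), with the other chromosomes between these. Clustered genes ranged more widely, from 1.32% on chromosome I to 6.22% on chromosome III. Counted in 93 blocks of 100 consecutive genes, 1 block held no member, the median was 4 and the highest count was 12. Blocks with 12 members were found on chromosome II at 8927 to 409032 and at 409410 to 820547 and on chromosome VII at 1224414 to 1597449. The distance from members to the next unassembled run was counted in assembled genes. For 64 members (12.8%) a single assembled gene lay between, for 249 (49.8%) it was 5 genes or fewer, and the median was 6 genes. No background was taken for runs placed at random, so whether these distances are short was not tested.

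Few members lay near chromosome ends or wide gaps, but their shares there were higher than those of assembled genes. Within 100 kb of the first or last transcript of a chromosome there were 30, 6.0% (4.08 to 8.45), beside 3.93% of assembled and 3.40% of clustered genes. Members in pairs were there in 10.3% of cases and members alone in 4.07%. A gap of more than 20 kb to a neighbouring gene was found beside 20 members, 4.00% (2.46 to 6.11), and beside 1.81% of assembled genes.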

How the data were processed

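Total RNA from mycelia was depleted of ribosomal RNA and sequenced as paired ends. The authors mapped reads to NC12 with HISAT2 (2.1.0), assembled each library with StringTie (1.3.3b) at default settings and merged the assemblies with the NC12 annotation. The deposited file is this merged annotation of 12 libraries. Its score column, as deposited by the authors, holds a constant for features written by StringTie or a dot for features carried over from the reference, and is no expression level. The study states that strand was kept, which the name of the kit does not show, and strands are those of the file. The authors' Cuffdiff values were not used here. Minimum read coverage and transcript length of the assembler, and read numbers per library, are not given in the sources used here. Sample groups came from the titles. Replicates are pooled in the file, so no comparison between groups was made, and precision is limited to the counting intervals.

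Genes were ordered by lowest base, and runs of unassembled genes were counted. Structure was taken from the transcript with most exonic bases. Gaps are bases between spans. Chromosome names, symbols and gene type came from the RefSeq gene table of NC12, which listed 9729 of 9730 genes; it holds no product names, so lists were matched by symbol. Genome, protein and promoter sequences were not analysed here. Chromosome ends are the first and last transcript in the file. Genes were named by rule, namely all members with a symbol or in a list, the 5 longest, shortest, richest in exons, nearest to and farthest from an assembled transcript, the 5 closest pairs and those with 2 transcripts. Members and lists were chosen with earlier results of these data known. Stretches and blocks named by their rank, and the families named cdh, stk and cyp450, were added after values were seen. Alternatives were other run lengths, gene orders, transcripts and distances.

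The code was tested on simulated data with 2256 genes, where all 315 planted isolated genes were recovered. Intervals are exact (Clopper-Pearson, 95%). Python 3.11.15, numpy 2.4.6, pandas 2.3.3, scipy 1.17.1 and matplotlib 3.10.9 were used.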

Additional observations from a re-analysis of the deposited data

How the results depend on the processing

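The number of isolated genes was 344 with runs of exactly 1, 566 with runs of up to 3 and 567 with each strand ordered on its own. It was 508 with runs broken at gaps over 20 kb. With RefSeq genes absent from the file, noncoding ones included, placed in the order and set as assembled, it was 511. In an alternative chosen after seeing the data, where 1 assembled gene inside a run was skipped, it was 456. It was 500 with midpoint order and with both other ways to find an unassembled gene. Of 108 values under 17 alternatives, 101 stayed within the 95% interval of the value reported (counts of genes, within 1.5 times), and 7 moved beyond it. Midpoint order gave 19 of the 101, each identical to the value reported, and other alternatives kept all or most of the members. The count therefore does not measure how robust the values are. With runs of exactly 1, the nearest assembled transcript lay at a median of 683.5 bp, an unannotated transcript lay within 1000 bp in 42.2%, and 4.07% lay within 100 kb of an end. The share with an unannotated transcript was 15% at 500 bp and 63.0% at 2000 bp. The gap to the farther neighbour was 1880.5 bp, and 14.6% carried a number from NCU10000 up. No paired analysis was possible because the file pools all libraries, and leaving out a replicate could not be run for the same reason. Alternatives on product names, GC content, proteins and promoters were not run. Depth limits which genes reach the file, by an amount that is unknown here.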
